A study of Homo sapiens with 2 samples.

Results

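The genes described here carry folate into the cell, hold it there and use it for one-carbon metabolism. They are the 9 genes FOLR1, SLC19A1, FPGS, GGH, SHMT1, MTHFD1, TYMS, SHMT2 and MTHFD2, chosen by symbol from the 58735 genes of the deposited expression table, and each symbol was found. RNA from A2780, a long-established line of human ovarian cancer cells, was sequenced after poly(A) selection in 2 libraries. The shJAM3 library came from A2780 cells in which JAM3, a junctional adhesion molecule of cell-cell contacts, was stably knocked down. The shControl library came from A2780 cells that the design text describes as carrying an empty vector and the labels give as WT. The titles carry the prefix sh while the design text speaks of siRNA, and the labels do not state whether a clone or a pool of cells was used. With 1 library per group no difference has a replicate check, no test of the conditions was possible and no p-value is given.

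Folate enters cells through a folate receptor that binds it at the surface and is taken up by endocytosis, or through the reduced folate carrier. Inside the cell a chain of glutamates is added to it, which keeps it from leaving and makes it a better substrate for the enzymes. Serine hydroxymethyltransferases then pass a carbon from serine to tetrahydrofolate, once in the cytosol and once in mitochondria, and the dehydrogenases of each compartment convert it for purine, thymidylate and methionine synthesis. The folate receptor alpha encoded by FOLR1 is known for its high abundance on many epithelial ovarian cancers, where it is a drug target. Thymidylate synthase and the enzymes that retain folate are known from work on antifolate drugs.

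The shJAM3 library held 16455079 fragments assigned to genes and the shControl library 15570262. A gene was taken as measured when it averaged at least 1 FPKM (fragments per kilobase of exon, scaled to library size) over both libraries, which left 10499 protein-coding genes. JAM3 itself was barely detected, with 14 fragments in shJAM3 and 18 in shControl, a ratio of 0.716 with a 95% counting interval from 0.330 to 1.52. A difference in the targeted gene was therefore not detectable at this depth. Some 8.53% of JAM3 exon bases are also exon of NCAPD3 on the opposite strand. NCAPD3 was at 36.0 FPKM in shJAM3 and 27.5 FPKM in shControl. How many of the JAM3 fragments came from JAM3 itself is thus uncertain, and the knockdown could not be checked in these data. The keratins KRT8 and KRT18 were at 153 and 165 FPKM in shJAM3, against 139 and 145 FPKM in shControl. Of the 8 epithelial markers listed, 3 were measured, and PAX8, a marker of Müllerian epithelium, was at 0.527 FPKM in shJAM3 and 1.12 FPKM in shControl. EPCAM and CDH1 were at 0.690 and 0.243 FPKM in shJAM3, against 0.904 and 0.169 FPKM in shControl. MUC1 and MUC16 were at 28.7 and 1.07 FPKM in shJAM3, against 28.6 and 0.475 FPKM in shControl. Of 4 mesenchymal markers listed, 3 were measured. The highest was VIM, at 50.2 FPKM in shJAM3 and 44.9 FPKM in shControl. CDH2 and COL1A1 were at 8.72 and 11.3 FPKM in shJAM3, against 8.11 and 13.5 FPKM in shControl. WT1 was at 0 FPKM in shJAM3 and at 0.0158 FPKM in shControl. The leukocyte marker PTPRC had no fragment in either library, and the summed level of 4 leukocyte markers was 1.36 FPKM in shJAM3 and 2.66 FPKM in shControl. Most of that sum was CD14, at 0.763 FPKM in shJAM3 and 2.28 FPKM in shControl, from 24 and 66 fragments. Because the samples are bulk RNA, a difference in the number of cells of a kind and a difference in RNA per cell cannot be told apart.

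All 9 genes were measured, and they covered a wide range of levels. FOLR1 stood above the others at 1012 FPKM in shJAM3 and 845 FPKM in shControl, and SLC19A1 was the lowest in both libraries, at 7.27 FPKM in shJAM3 and 7.34 FPKM in shControl. Between them, from high to low in both libraries, came SHMT2, MTHFD2, FPGS, MTHFD1, TYMS, GGH and SHMT1. In shControl the neighbours MTHFD2 and FPGS, at 55.1 and 54.6 FPKM, had nearly the same level, and without replicates no neighbours in this order can be set against their spread. The summed level of the 9 genes was 1311 FPKM in shJAM3 and 1129 FPKM in shControl, most of it from FOLR1. FPKM divides by the length of all annotated exons of a gene, and that length exceeded the principal coding transcript by between 1.09 times for MTHFD2 and 2.99 times for MTHFD1. Levels of different genes therefore depend on the length used.

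**Figure D1:**
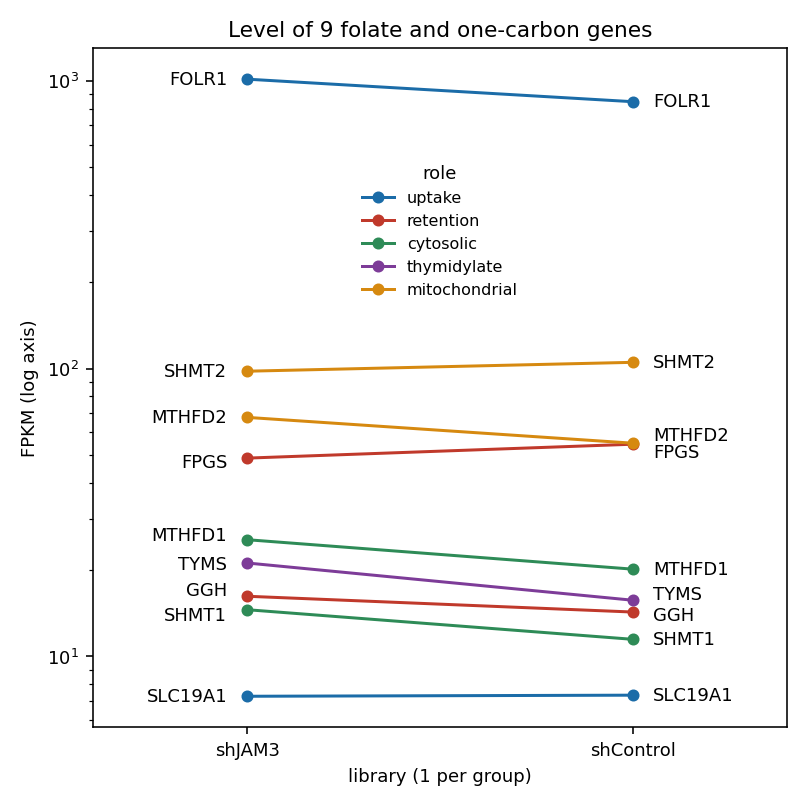
Level of each of the 9 genes in FPKM (log axis) in the shJAM3 library on the left and the shControl library on the right, 1 library per group, coloured by role. FOLR1 is at the top and SLC19A1 at the bottom in both libraries, and the order of the 9 genes is the same.

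Between the libraries none of the 9 genes was 2-fold apart on the scale log2(FPKM + 1). Only 1.8% of the 10499 measured protein-coding genes were at least 2-fold apart in either direction, so this does not set the 9 genes apart. On that scale 6 of the 9 log2 ratios of shJAM3 to shControl were above 0 and 3 were below, with a median of 0.26, against a median of -0.01 over all measured protein-coding genes. Over all of these, 5182 log2 ratios were above 0 and 5316 below, which is also the background for the counts of direction in later lists. An exact interval from fragment counts was computed for each ratio of FPKM. It lay above 1 for 6 genes, where it did so for 34.5% of all measured protein-coding genes, and below 1 for 2 genes, where it did so for 36.8%. These intervals compare 2 libraries and cover counting error only, since PCR copies were not told apart from molecules and cultures were not repeated.

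The ratio of a gene between these libraries moved with the GC content of its transcripts. Across 10496 measured protein-coding genes the log2 ratio correlated with GC content with r = -0.50, a description across genes that share both libraries. Over 20 GC bins the largest median log2 ratio of a bin was 0.24 and the smallest was -0.50. The GC content of the 9 genes ran from 41.4% for MTHFD2 to 64.4% for SLC19A1. Less the median of its GC bin, the log2 ratio was above 0 for 9 of 9 genes, with a median of 0.24, and it changed sign for FPGS, SHMT2 and SLC19A1. Over all measured protein-coding genes, 5240 centred values were above 0 and 5240 below, an even split that the centring itself sets. Both sets of values are given below for the 9 genes. For most other genes only the ratio without centring is given, and the part of GC content in these differences was not tested.

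**Figure D2:**
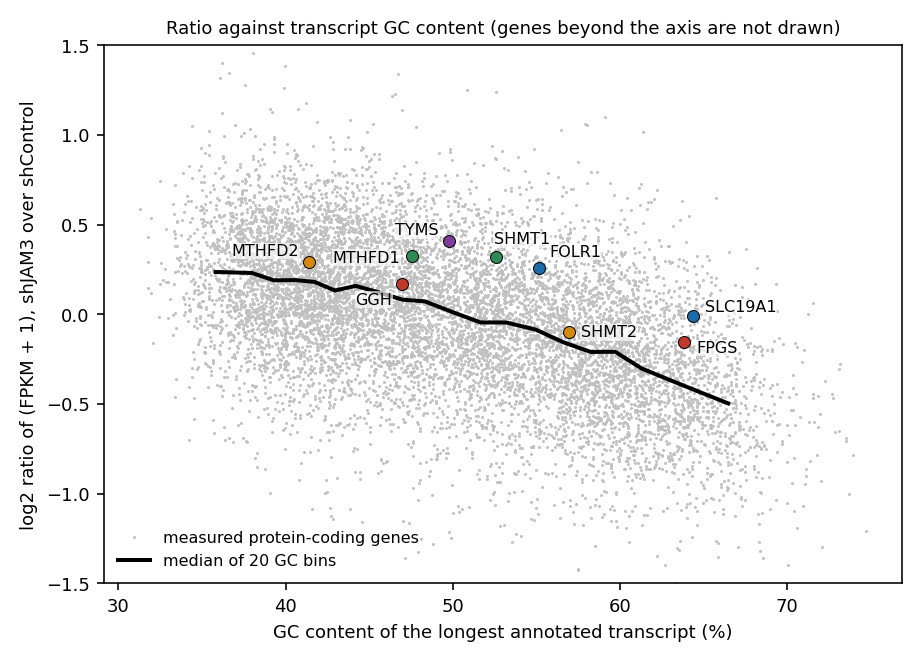
Log2 ratio of (FPKM + 1), shJAM3 over shControl, against the GC content of the longest annotated transcript in percent, for measured protein-coding genes (grey points) and the 9 genes (coloured by role). The black line joins the medians of 20 GC bins, from 0.24 to -0.50, and each of the 9 genes lies above it.

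Promoter sequences from RefSeq (GRCh38.p14) were matched by symbol for 6 of the 9 genes, namely FPGS, MTHFD1, MTHFD2, SHMT1, SLC19A1 and TYMS. They are shown for SHMT1, MTHFD2 and TYMS, each higher in shJAM3, because these genes had different sets of the motifs searched. Each is printed 5′ to 3′ on the strand of the gene and ends at the base before its first annotated exon base. Capitals mark a CCAAT box (CCAAT, written ATTGG where it lies on the opposite strand) or a GC box (GGGCGG, written CCGCCC on the opposite strand).
SHMT1: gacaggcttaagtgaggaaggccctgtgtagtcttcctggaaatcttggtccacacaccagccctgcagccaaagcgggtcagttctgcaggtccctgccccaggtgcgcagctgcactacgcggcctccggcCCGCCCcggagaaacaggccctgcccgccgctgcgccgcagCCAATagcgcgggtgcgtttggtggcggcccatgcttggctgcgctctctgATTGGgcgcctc
MTHFD2: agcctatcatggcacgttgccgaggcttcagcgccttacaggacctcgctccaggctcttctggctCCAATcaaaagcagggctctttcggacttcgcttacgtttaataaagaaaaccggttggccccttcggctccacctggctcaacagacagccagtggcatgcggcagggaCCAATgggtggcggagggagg
TYMS: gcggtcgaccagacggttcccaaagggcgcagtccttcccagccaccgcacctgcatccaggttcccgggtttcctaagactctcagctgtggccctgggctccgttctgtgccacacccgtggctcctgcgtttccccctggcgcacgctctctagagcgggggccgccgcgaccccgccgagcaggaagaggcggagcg

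The SHMT1 stretch is chr17:18363564-18363800 on the minus strand, with 1 CCAAT box on each strand and 1 GC box on the opposite strand. The MTHFD2 stretch is chr2:74198365-74198561 on the plus strand, with 2 CCAAT boxes and no GC box. The TYMS stretch is chr18:657403-657603 on the plus strand and holds none of the motifs searched. Motifs were searched on both strands of the full windows, from 250 bases before to 50 bases after the annotated start. They were the CCAAT box, the GC box GGGCGG, the E2F-type words TTTCCCGC and TTTGGCGC, and TGATGCAA for the composite element bound by ATF4 dimers, and no 2 of these words overlapped in the stretches printed. CCAAT was in 34.6% and GGGCGG in 45.0% of all 35116 windows, while TTTCCCGC was in 1.63%, TTTGGCGC in 0.652% and TGATGCAA in 0.866%. CCAAT was found for FPGS, MTHFD1, MTHFD2 and SHMT1 and not for SLC19A1 or TYMS. TTTCCCGC was found in the TYMS window, past the stretch printed, and in 1 of 4 windows of SLC19A1. TGATGCAA was in no window of the 6 genes. A match is a run of letters and not a site.

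Of the pair that brings folate into the cell, the receptor was higher in shJAM3 and the carrier was not distinguishable. FOLR1 (ENSG00000110195, chromosome 11, 72189558 to 72196323, plus strand, GRCh38), the GPI-anchored folate receptor alpha, had 27819 fragments in shJAM3 and 21399 in shControl. That was 0.169% of all fragments in shJAM3 (95% Wilson interval 0.167% to 0.171%) and 0.137% in shControl (0.136% to 0.139%). Its level ranked 17 among measured protein-coding genes in both libraries, or 7 in shJAM3 and 9 in shControl when genes of the mitochondrial genome were left out. Such a rank places the receptor transcript among the most abundant messages of these cells. The FPKM ratio was 1.20 (1.18 to 1.22) and the log2 ratio 0.26, or 0.35 after GC centring. No other annotated exon overlapped FOLR1. The log2 ratio of FOLR1 was above that of 75.6% of measured protein-coding genes, or 86.3% after GC centring, so many genes had a higher one.

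SLC19A1 (ENSG00000173638, chromosome 21, 45493572 to 45544411, minus strand) encodes the reduced folate carrier, an antiporter that also takes up methotrexate. It was at 7.27 FPKM in shJAM3 and 7.34 FPKM in shControl, from 1213 fragments in shJAM3 and 1127 in shControl. The ratio was 0.991 (0.913 to 1.08), so a difference was not detectable at this depth, although the interval leaves room for a difference of several percent either way. Its log2 ratio was -0.01, or 0.02 when scaled by total fragments and 0.37 after GC centring, the median of its GC bin being -0.38. Some 14.0% of its exon bases are also exon of COL18A1 on the opposite strand, at 5.25 FPKM in shJAM3 and 8.72 FPKM in shControl. The protocol describes no step that marks the strand, so fragments from shared bases cannot be assigned to one gene. The level of FOLR1 was 139 times that of SLC19A1 in shJAM3 and 115 times in shControl, a change of 1.21 times (1.11 to 1.31). With principal transcript lengths the multiples were 65.7 in shJAM3 and 54.4 in shControl, and the log2 change of 0.27 became -0.03 after GC centring.

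The enzymes that set the glutamate chain differed in opposite directions. FPGS (ENSG00000136877, chromosome 9, 127794597 to 127814327, plus strand), folylpolyglutamate synthase, adds the glutamates and was lower in shJAM3, at 48.9 FPKM, than in shControl, at 54.6 FPKM. Its ratio was 0.895 (0.852 to 0.940) and its log2 ratio -0.16, but 0.23 after GC centring. GGH (ENSG00000137563, chromosome 8, 63015079 to 63039171, minus strand), the lysosomal gamma-glutamyl hydrolase that removes them, was at 16.2 FPKM in shJAM3 and 14.3 FPKM in shControl. The ratio of 1.13 (1.02 to 1.26) lay just beyond counting error, on 845 fragments in shJAM3 and 686 in shControl. Its log2 ratio was 0.17, and 0.09 after GC centring. The level of FPGS was 3.02 times that of GGH in shJAM3 and 3.83 times in shControl, a change of 0.789 times (0.705 to 0.882). After GC centring the log2 change of that ratio was 0.12 in place of -0.34. The direction of FPGS, alone or against GGH, thus depended on whether GC content was taken into account.

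Both cytosolic enzymes were higher in shJAM3, by nearly the same ratio. SHMT1 (ENSG00000176974, chromosome 17, 18327860 to 18363563, minus strand), the cytosolic serine hydroxymethyltransferase, was at 14.5 FPKM in shJAM3 and 11.5 FPKM in shControl. The ratio was 1.27 (1.18 to 1.36). MTHFD1 (ENSG00000100714, chromosome 14, 64388031 to 64463457, plus strand) encodes the trifunctional enzyme that interconverts the one-carbon forms of cytosolic folate, and it was at 25.4 FPKM in shJAM3 and 20.1 FPKM in shControl. Its ratio was also 1.27 (1.21 to 1.33). The log2 ratios of 0.32 for SHMT1 and 0.33 for MTHFD1 were 0.36 and 0.24 after GC centring, so both stayed above 0. Overlapping exons covered 3.69% of SHMT1 and 11.0% of MTHFD1, in the second case of 3 genes on the opposite strand with at most 3.49 FPKM in shJAM3 and 3.00 FPKM in shControl.

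TYMS had the highest ratio of the 9 genes. TYMS (ENSG00000176890, chromosome 18, 657604 to 673578, plus strand) encodes thymidylate synthase, the enzyme that makes dTMP and the target of fluoropyrimidines, and it was at 21.1 FPKM in shJAM3 and 15.7 FPKM in shControl. The ratio was 1.35 (1.21 to 1.50), on 870 fragments in shJAM3 and 595 in shControl. Its log2 ratio of 0.41, or 0.40 after GC centring, exceeded that of 86.7% of measured protein-coding genes. TYMS is also the member with the most shared exon sequence, since 46.6% of its exon bases lie in exons of ENOSF1 and TYMSOS on the opposite strand. ENOSF1, which covers 39.1%, was at 2.88 FPKM in shJAM3 and 2.47 FPKM in shControl. TYMSOS, which covers 7.41%, was at 1.54 FPKM in shJAM3 and 1.00 FPKM in shControl. Both partners were well below TYMS, and their part in its ratio was not tested.

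The mitochondrial enzymes lay on opposite sides of a ratio of 1. SHMT2 (ENSG00000182199, chromosome 12, 57229327 to 57234935, plus strand), the mitochondrial serine hydroxymethyltransferase, was at 97.9 FPKM in shJAM3 and 105 FPKM in shControl. The ratio was 0.931 (0.903 to 0.961) and the log2 ratio -0.10, or 0.06 after GC centring. MTHFD2 (ENSG00000065911, chromosome 2, 74198562 to 74217565, plus strand), the mitochondrial dehydrogenase and cyclohydrolase known for its high expression in tumours and embryos, was at 67.7 FPKM in shJAM3 and 55.1 FPKM in shControl. Its ratio was 1.23 (1.18 to 1.28) and its log2 ratio 0.29, or 0.11 after GC centring. Genes on the opposite strand overlap 33.2% of MTHFD2 exon bases. SLC4A5, which covers 27.2%, was at 0 FPKM in shJAM3 and 0.00811 FPKM in shControl. How fragments on shared bases were counted is not stated, so the level of MTHFD2 and its multiples of other genes are uncertain to that extent. The annotated pseudogenes of these 9 genes, which could draw fragments from them, had at most 4 fragments in shJAM3 and 1 in shControl.

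**Figure D3:**
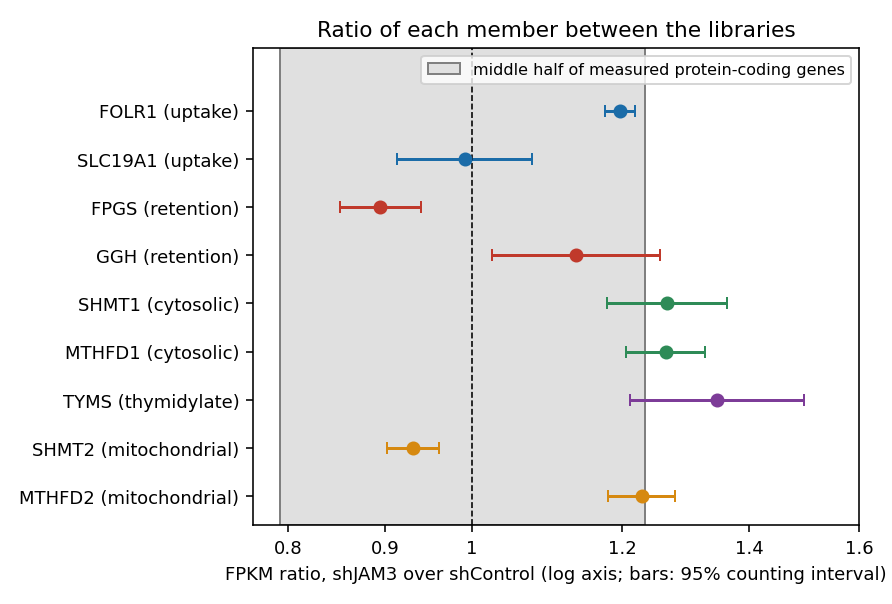
Ratio of FPKM, shJAM3 over shControl (log axis), for each of the 9 genes with its 95% counting interval, and the range between the quartiles of measured protein-coding genes (grey, 0.792 to 1.23). SHMT1, MTHFD1 and TYMS lie above the upper quartile, FPGS and SHMT2 have intervals below 1, and the interval of SLC19A1 holds 1.

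Setting the paralogues of each compartment side by side, the mitochondrial form was the more abundant at the deposited lengths. The level of SHMT2 was 6.74 times that of SHMT1 in shJAM3 and 9.16 times in shControl, a change of 0.735 times (0.680 to 0.795). With principal transcript lengths the multiples were 4.35 in shJAM3 and 5.91 in shControl. The log2 change was -0.44, and -0.33 after GC centring, so the balance was less tilted to the mitochondrial form in shJAM3 either way. MTHFD2 was at 2.66 times the level of MTHFD1 in shJAM3 and 2.74 times in shControl, and the change of 0.971 times (0.912 to 1.03) was within counting error. With principal lengths these multiples were 0.972 in shJAM3 and 1.00 in shControl, so which of the pair was the more abundant depended on the length used. The log2 change was -0.04, and -0.14 after GC centring.

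**Figure D4:**
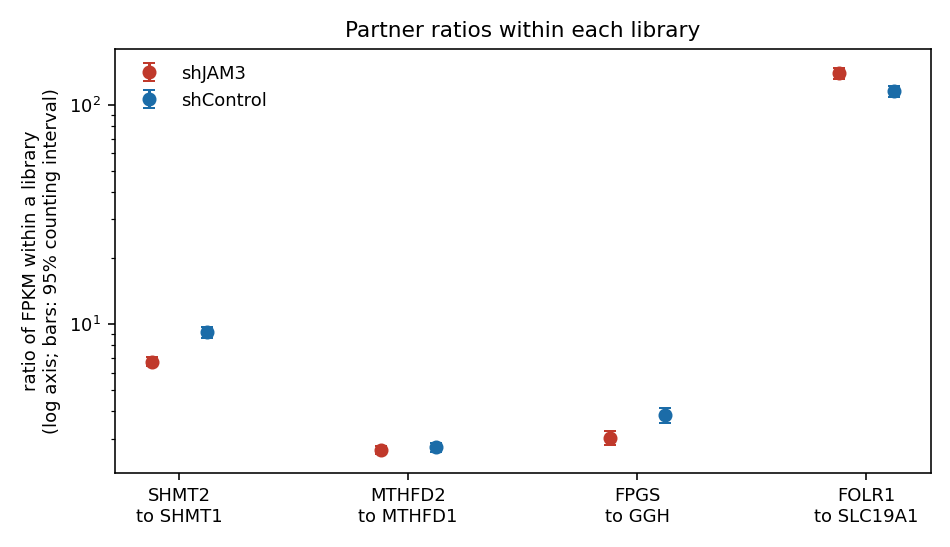
Ratio of FPKM of partner genes within a library (log axis) with 95% counting intervals, shJAM3 in red and shControl in blue. SHMT2 to SHMT1 is 6.74 in shJAM3 and 9.16 in shControl, and the MTHFD2 to MTHFD1 intervals overlap.

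A wider list of 37 other folate and one-carbon genes held 25 measured genes. Of these, 16 log2 ratios were above 0 and 9 below, none was 2-fold apart, and the median was 0.26, or 0.15 after GC centring and 0.11 without the filter on low values. Counting intervals lay above 1 for 15 and below 1 for 4 of the 25, against 34.5% above and 36.8% below over all measured protein-coding genes. Among other genes of uptake and retention, SLC46A1, the proton-coupled folate transporter, was the one measured, at 2.46 FPKM in shJAM3 and 2.78 FPKM in shControl (ratio 0.885, 0.757 to 1.03), with 61.5% of its exon bases overlapped. The folate receptor genes FOLR2 and FOLR3 had 6 and 3 fragments in shJAM3, against 0 and 1 in shControl. IZUMO1R, the receptor family member known from the egg surface, had none in either library, which allows up to 0.217 FPKM in shJAM3 and 0.236 FPKM in shControl when 3 fragments are taken as the limit. FOLR1 was thus the one folate receptor gene above trace level in these cells. SLC25A32, the mitochondrial folate carrier, had 11 fragments in shJAM3 and 4 in shControl, but 80.8% of its exon bases are shared with other annotated genes and its level is uncertain.

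Cytosolic enzymes of the wider list included 5 measured genes of 7, with 3 log2 ratios above 0 and 2 below. The purine enzymes GART and ATIC, which use formyl-folate, had ratios of 1.25 (1.19 to 1.31) and 1.19 (1.12 to 1.26). MTHFS was within counting error at 0.877 (0.606 to 1.27), and a readthrough gene covers 34.0% of its exons. FTCD had 10 fragments in shJAM3 and 24 in shControl, and ALDH1L1 had none in either.

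Mitochondrial enzymes of the wider list included 4 measured genes of 5, with 1 log2 ratio above 0, beyond counting error, and 3 below, 1 of them beyond it. MTHFD1L, the mitochondrial formate-producing synthetase that acts after MTHFD2, was at 27.0 FPKM in shJAM3 and 36.6 FPKM in shControl, a ratio of 0.738 (0.698 to 0.781). ALDH1L2, at 0.904 (0.783 to 1.04), and MTFMT, at 0.929 (0.773 to 1.12), were within counting error. MTHFD2L, the paralogue of MTHFD2, was below the filter at 0.562 FPKM in shJAM3 and 0.259 FPKM in shControl. In the mitochondrial route from serine to formate, the log2 ratios after GC centring were 0.06 for SHMT2, 0.11 for MTHFD2 and -0.38 for MTHFD1L.

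Of the genes that feed the pathway, 4 of 5 for serine synthesis and transport had ratios above 1 beyond counting error, where 34.5% of all measured protein-coding genes did. The exception was PHGDH, the first enzyme of serine synthesis, at 75.9 FPKM in shJAM3 and 103 FPKM in shControl, a ratio of 0.736 (0.718 to 0.754). SFXN1, the mitochondrial serine transporter, had a ratio of 1.27 (1.21 to 1.34) and its relative SFXN3 of 1.31 (1.22 to 1.40). In the methionine cycle 8 of 11 genes were measured, 6 with log2 ratios above 0. MAT2A, which makes S-adenosylmethionine, was at 58.6 FPKM in shJAM3 and 31.7 FPKM in shControl, a ratio of 1.85 (1.76 to 1.95), and other genes overlap 12.4% of its exons. CTH, of the transsulfuration route to cysteine, had a ratio of 1.46 (1.39 to 1.54). CBS, the step before it, had a ratio of 0.564 (0.498 to 0.638), but its near-identical copy CBSL had 242 fragments in shJAM3 and 8 in shControl. Summed over CBS and CBSL the fragments were 662 in shJAM3 and 694 in shControl, a ratio of 0.879 (0.789 to 0.979), so most of the CBS difference was not seen in the sum. Glycine cleavage had 2 measured genes of 4, DLD at a ratio of 1.36 (1.24 to 1.48) and GCSH at 2.13 (1.59 to 2.88). GCSH summed with its copy GCSHP5 had a ratio of 1.85 (1.48 to 2.32). The other 2 listed genes were near the floor. GLDC had 5 fragments in shJAM3 and 12 in shControl. AMT had 1 fragment in shJAM3 and 6 in shControl, but 63.1% of its exon bases are shared with another annotated gene and its level is uncertain.

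**Figure D5:**
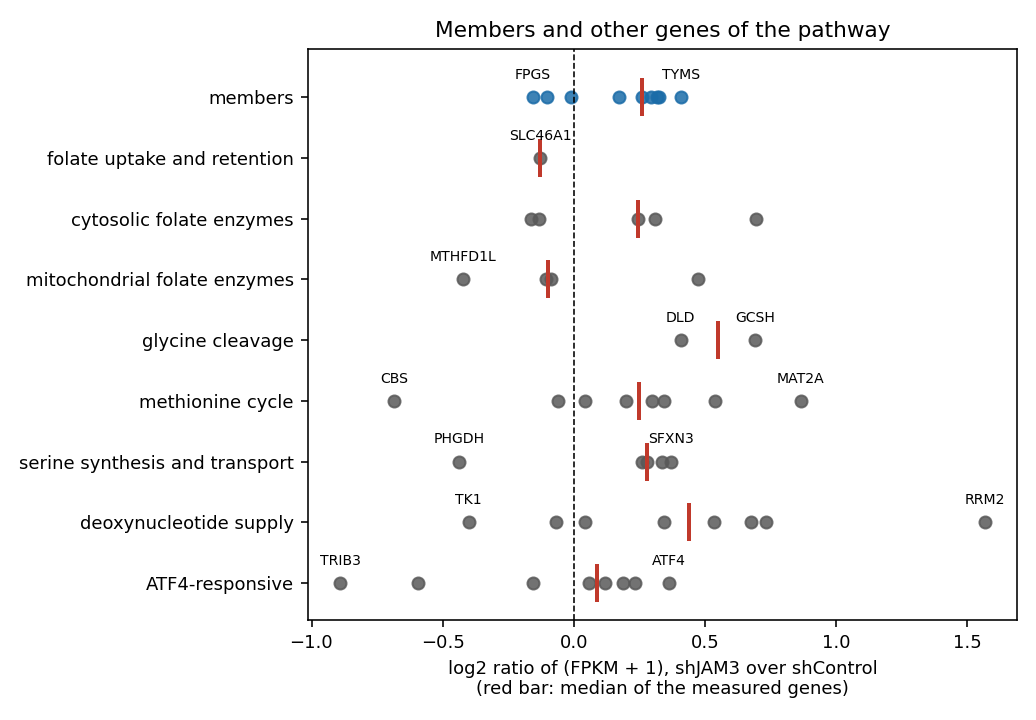
Log2 ratio of (FPKM + 1), shJAM3 over shControl, for measured genes of each list (points), with the median of the list as a red bar and the highest and lowest gene named where it is described in the text. The 9 genes lie between -0.16 and 0.41, inside the span of the methionine cycle and deoxynucleotide lists.

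Genes that supply DNA precursors in S phase, set beside TYMS, showed wider differences. All 8 were measured, 6 with log2 ratios above 0 and 2 below, with a median of 0.44. RRM2, the regulated subunit of ribonucleotide reductase, was at 10.4 FPKM in shJAM3 and 2.84 FPKM in shControl, a ratio of 3.66 (3.16 to 4.24), and it was the one gene of the list past the 2-fold rule. DCTPP1, a dCTP pyrophosphatase, and PCNA, the replication clamp, had ratios of 1.68 (1.55 to 1.83) and 1.60 (1.51 to 1.71). Other annotated genes overlap 20.2% of the exon bases of RRM2 and 42.1% of those of DCTPP1. TK1, the salvage route to dTMP and named here after its values were seen, had a ratio of 0.755 (0.717 to 0.795). Thymidine kinase and thymidylate synthase, both sources of dTMP, thus lay on opposite sides of 1. After GC centring the log2 ratio of TK1 was -0.02, in place of -0.40, and that of TYMS was 0.40.

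ATF4 is a stress-responsive transcription factor known to drive MTHFD2, SHMT2 and serine synthesis genes. ATF4 was at 173 FPKM in shJAM3 and 134 FPKM in shControl, a ratio of 1.29 (1.24 to 1.34). All 8 genes of the ATF4 list, ATF4 included, were measured, 5 with log2 ratios above 0 and 3 below, with a median of 0.09 and a mean of -0.08, which differ in sign. TRIB3 had a ratio of 0.536 (0.517 to 0.556) and DDIT4 of 0.662 (0.638 to 0.686), with 41.2% of the exon bases of DDIT4 overlapped. Members of the list thus lay on both sides of 0.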

How the data were processed

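RNA was measured in 2 poly(A)-selected libraries of A2780 cells, 1 per group, copied with random hexamers and amplified by PCR per the labels' protocols. The authors deposited 1 table of FPKM per gene. The submitters' processing notes list, without role or order, edgeR 3.22.5 and DESeq2 1.20.0, featureCounts 1.5.0-p3, STAR, STAR-Fusion and HISAT2 2.0.5, fastp, and GATK 4.1.1.0. No genome build is given in the sources used here. All 58735 identifiers, positions and exon lengths matched GENCODE 29 (GRCh38).

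Multiplied by gene length, 100% of FPKM values in each library came out as whole fragments (tolerance 0.001), which gave fragments per gene. The sizes implied by the FPKM were 1.01 times the fragment total in shJAM3 and 0.987 times in shControl, so the deposited values carry a further scaling of unstated method. Of rows with the same symbol the one of highest mean was kept, which dropped 1566 and left 57169. Log2 ratios used a pseudocount of 1 FPKM, which understates differences of low genes. The rule of size was a log2 ratio of at least 1. Ratios of FPKM without the pseudocount carry exact conditional binomial 95% intervals, and changes of partner ratios carry normal intervals on the log scale. GC centring subtracted the median of 20 bins. Fragments gave the intervals, shares of a library, sums over gene copies and 1 alternative scaling, and no count test was possible with 1 library per group. Named genes were the 9 genes, every listed gene of uptake, cytosolic and mitochondrial folate, and the 3 with the largest absolute log2 ratio of each other group. Some genes that this rule takes are left out of the text. The genes and lists were chosen with earlier results of these data known. Alternatives were another pseudocount, scaling, filter, GC centring and the mean. Computations used python 3.11.15, numpy 2.4.6, pandas 2.3.3, scipy 1.17.1 and matplotlib 3.10.9, and the scripts were tested on simulated data.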

Additional observations from a re-analysis of the deposited data

How the results depend on the processing

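No paired analysis was possible because each group had 1 library. The median log2 ratio of the 9 genes, 0.26, was 0.17 as a mean. The median of the 37 other genes, also 0.26, was 0.11 without a filter on low values and 0.15 after GC centring. GC centring reversed FPGS to 0.23 and SHMT2 to 0.056. Applied to partner ratios, an alternative chosen after seeing the data, it gave log2 changes of 0.12 for FPGS to GGH and -0.027 for FOLR1 to SLC19A1, both reversed, and -0.14 for MTHFD2 to MTHFD1. Principal transcript lengths, also chosen after seeing the data, moved the level multiples as given above. They cannot move the changes between libraries, because the length of a gene is the same in both. Of 50 log2 ratios of single genes, GC centring moved 27 by more than their counting error, 4 of them across 0, and reversed 2 that lay beyond counting error. Scaling by total fragments moved 2, a pseudocount of 0.1 FPKM moved 1, and scaling to the median ratio moved 0. The count of 0 members at least 2-fold apart was the same under each alternative run. The counts of 6 and 2 members beyond counting error were the same under the scalings run. The filters kept all 9 genes, so they could not change any of these counts. GC centring was not applied to the counting intervals. Depth limits the genes with few fragments, and 1 library per group leaves the spread between cultures unmeasured.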
